A study of Homo sapiens with 8 samples.

Results

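The response of HMLE cells to TGF-β was followed in cells that carried a scrambled shRNA, which has no intended target. HMLE is a human mammary epithelial cell line made by immortalization. The comparison used 4 of the 8 libraries of the study, chosen by their labels: 2 of untreated cells and 2 of cells given TGF-β for 16 h. Cells of both groups had received the scrambled construct SHC002 by lentivirus and were expanded under 0.5 µg/mL puromycin, so both groups are selected cells of 1 line. The remaining 4 libraries came from HMLE cells with an shRNA against SOX4, untreated or given TGF-β, and entered the same fit. The sources used here do not give the dose or isoform of TGF-β. Nor do they say whether replicate libraries came from separate cultures, so the spread behind each p-value is that between samples and may be technical.

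TGF-β is a secreted cytokine that binds a pair of receptor kinases, which phosphorylate SMAD2 and SMAD3. These proteins join SMAD4, enter the nucleus and change transcription together with other factors. In mammary epithelial cells the pathway is known for slowing proliferation, for inducing matrix genes and for epithelial-mesenchymal transition, a programme in which cells lose junctions and gain motile, matrix-producing features.

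Values are FPKM, in which reads are divided by the length of the transcript and the size of the library. Many deposited values had lost their decimal mark and were restored from the whole reads behind them, which was possible for 5222 genes with a single listed transcript. The reads in these genes numbered 6054683 and 4545480 in untreated replicates 1 and 2 and 5590967 and 5167628 with TGF-β, with medians of 364 to 486 a gene. Library pairs differed by more than counting noise, with a chi-square per gene of 9.91 untreated and 3.66 with TGF-β, against 40.3 and 21.4 in SOX4-shRNA cells, and the 4 groups share 1 estimate of spread.

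The epithelial label was checked against marker genes. All 12 epithelial markers reached at least 1 FPKM, among them the basal keratins KRT5 (3945 and 3478 FPKM untreated, 3295 and 3335 with TGF-β) and KRT17 (1747 and 1750, then 1966 and 2024). Each of the 10 endothelial markers stayed under 1 FPKM, with CDH5 and EMCN listed at 0 in all 4 libraries, and their summed level was 0.424 and 0.558 FPKM untreated and 0.531 and 0.503 with TGF-β. Of 10 leukocyte markers, CD3E and CD3D were listed at 0, and CD68 and CSF1R alone reached 1 FPKM. The other 8 summed to 0.786 and 0.725 FPKM untreated and 0.898 and 0.506 with TGF-β. Of 13 fibroblast markers 11 reached 1 FPKM, while LUM and PDGFRA did not and together summed to between 0.0903 and 0.157 FPKM. Of the 6 fibroblast markers that could be tested, COL1A1 and COL1A2 rose, and the part of fibroblast-like cells in the results was not tested. In bulk RNA, more cells of a kind and more RNA per cell cannot be told apart.

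TGF-β changed 397 of 5217 genes tested, or 7.61% (limma on log2(FPKM + 1), adjusted p under 0.05). Of these, 273 were higher (5.23%) and 124 lower (2.38%). In all 397 both treated libraries lay beyond both untreated ones, which was also the case for 63.7% of all genes tested (29.2% above and 34.5% below). Fold changes are given on the log2(FPKM + 1) scale with their SE, which understates the change of low genes. The rises were somewhat larger than the falls, with a median fold in mean FPKM of 1.86 against 1.65. The fold was at least 2 for 104 of the 273 higher and 35 of the 124 lower genes, and at least 4 for 17 and 4. The median of all genes tested was -0.03. By read weights instead (limma voom on the whole reads), 258 genes were higher and 206 lower, and the median of all genes moved to -0.10. With median log ratio scaling 330 were higher and 100 lower. Leaving out untreated replicate 1 or 2 left 60 or 98 calls, and leaving out TGF-β replicate 1 or 2 left 31 or 30. Of these, 59, 94, 31 and 30 were among the 397.

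**Figure D1:**
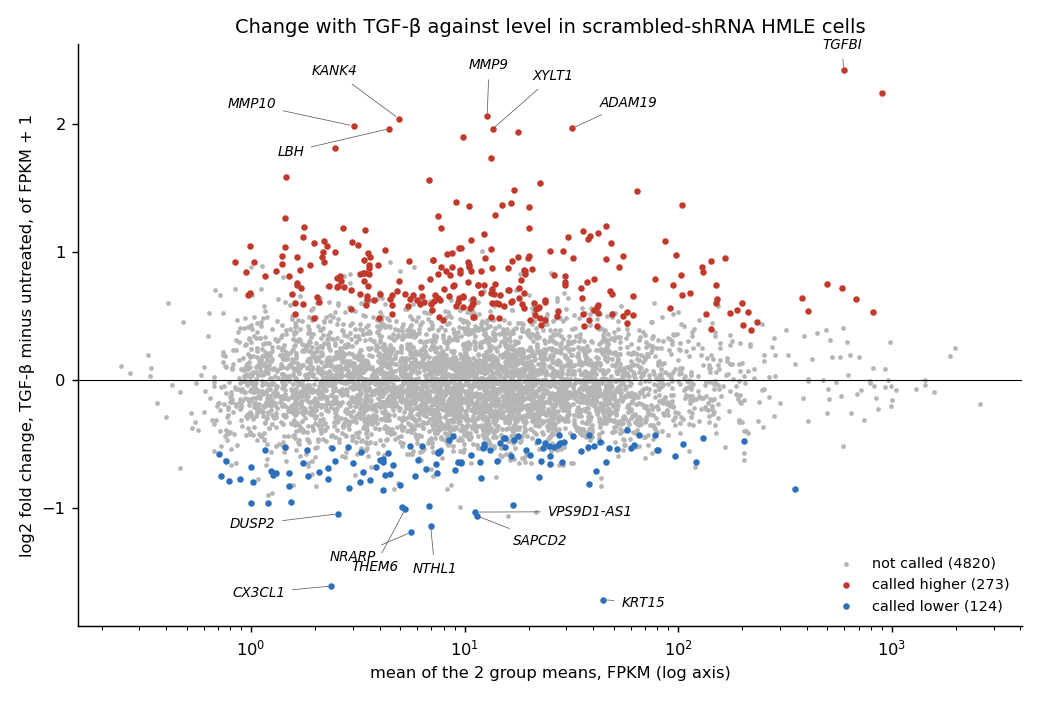
Log2 fold change with TGF-β (vertical axis, of FPKM + 1) against mean FPKM of the 2 groups (horizontal, log axis) for the 5217 genes tested in scrambled-shRNA cells, 1 point a gene. Red marks the 273 genes called higher and blue the 124 called lower; TGFBI stands out at high level, and KRT15 has the lowest value.

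TGFBI, which encodes a secreted protein of the matrix, had the largest rise on the log2(FPKM + 1) scale. By the ratio of mean FPKM, 5.36 for TGFBI, genes of lower level stood above it, among them MMP10 (8.60), COL22A1 (8.08), KANK4 (6.48) and LBH (6.29). TGFBI had 179 and 195 FPKM in the untreated libraries and 999 and 1009 with TGF-β, a log2 fold change of 2.42 ± 0.10 (SE; limma adjusted p = 2.6e-05). The replicates lay close together and the groups far apart. In GRCh37, the build of the files, TGFBI has 17 exons on the plus strand of chromosome 5 (135364677 to 135399507). It is among 26 genes restored at a score at which random digits also passed. The second treated value was deposited with the mark intact, while the first and both untreated values rest on the restoration.

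Proteases and enzymes of the matrix followed. The gelatinase MMP9 went from 4.47 and 4.19 to 20.9 and 21.5 FPKM (2.06 ± 0.23), and the stromelysin MMP10 from 0.804 and 0.458 to 5.75 and 5.10 (1.98 ± 0.16). ADAM19, a membrane metalloprotease, went from 12.6 and 12.2 to 51.0 and 51.8 FPKM (1.97 ± 0.11). XYLT1, which starts glycosaminoglycan chains on proteoglycans, went from 4.84 and 5.04 to 22.9 and 21.3 (1.96 ± 0.11). None of these groups overlapped, which held for all 397 genes called and for 63.7% of all genes tested. All 4 calls stayed past the threshold in each alternative analysis.

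Genes of other kinds were among the 20 largest rises too. KANK4, an adaptor of the cell cortex, rose from 1.21 and 1.43 to 8.19 and 8.87 FPKM (2.04 ± 0.12; its reading held 0.953 of the probability, close to the limit of 0.95). LBH, a transcription cofactor, rose from 1.05 and 1.39 to 8.51 and 6.81 (1.96 ± 0.16), and CSF2, the cytokine GM-CSF, from 7.67 and 5.98 to 28.0 and 29.5 (1.94 ± 0.26). The prostaglandin transporter SLCO2A1 (1.90 ± 0.12) and PTGS2, the inducible cyclooxygenase COX-2 (1.57 ± 0.13), rose in the same libraries. Further rises were those of COL22A1 (1.81), the cholesterol exporter ABCA1 (1.73), FLRT2 (1.54), N-cadherin CDH2 (1.49), the GTPase RHOB (1.47), haem oxygenase HMOX1 (1.39), KCTD11 (1.39) and the integrin activator FERMT1 (1.37). CGB8 (1.58 ± 0.32) rests on 4 and 1 reads untreated and 31 and 22 with TGF-β, and the gene has near-identical copies between which reads can be split.

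The sequences upstream of the leading risers are shown because SMAD and AP-1 factors are known to act at such sites in TGF-β target genes. They are the 250 bases before the transcription start of the 4 largest risers with an entry in the RefSeq promoter table (GRCh38.p14), 5′ to 3′ on the gene's strand. TGFBI is chr5:136028738-136028987 (plus strand), KANK4 chr1:62319435-62319684 (minus strand), MMP10 chr11:102780629-102780878 (minus strand) and ADAM19 chr5:157575776-157576025 (minus strand). Capitals mark CAGAC, part of the SMAD-binding CAGA box, TGANTCA, the AP-1 motif, and CAGGTG, an E-box that SNAI and ZEB factors can bind, each on either strand; GTCTAGAC, the palindromic SMAD element, was searched too.
TGFBI: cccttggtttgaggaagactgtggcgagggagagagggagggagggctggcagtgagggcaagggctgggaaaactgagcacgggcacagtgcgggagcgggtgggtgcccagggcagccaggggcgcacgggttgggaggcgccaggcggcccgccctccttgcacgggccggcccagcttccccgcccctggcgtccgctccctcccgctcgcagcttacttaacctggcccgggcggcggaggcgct
KANK4: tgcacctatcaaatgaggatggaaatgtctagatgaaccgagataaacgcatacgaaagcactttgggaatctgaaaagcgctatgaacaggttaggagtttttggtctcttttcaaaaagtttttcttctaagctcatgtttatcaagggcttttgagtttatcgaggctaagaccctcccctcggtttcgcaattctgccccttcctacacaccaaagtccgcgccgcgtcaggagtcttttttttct
MMP10: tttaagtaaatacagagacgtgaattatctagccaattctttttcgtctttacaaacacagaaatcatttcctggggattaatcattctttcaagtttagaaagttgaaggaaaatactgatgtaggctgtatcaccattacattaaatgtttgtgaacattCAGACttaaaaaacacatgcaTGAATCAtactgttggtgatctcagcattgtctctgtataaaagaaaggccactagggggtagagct
ADAM19: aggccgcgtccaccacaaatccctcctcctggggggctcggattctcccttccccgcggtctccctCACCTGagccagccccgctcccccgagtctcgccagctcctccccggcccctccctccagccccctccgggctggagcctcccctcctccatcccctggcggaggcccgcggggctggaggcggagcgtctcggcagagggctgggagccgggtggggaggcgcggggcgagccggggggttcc
The MMP10 window held 1 CAGAC and 1 TGANTCA, the ADAM19 window held 1 CAGGTG, and the windows of TGFBI and KANK4 held none of the 4 motifs. Of the genes tested, 4132 had an entry. TGANTCA stood in 18 of 207 windows of higher genes (8.70%), in 3 of 96 of lower genes (3.13%), in 4.07% of all genes tested and in 6.60% of the 27305 windows in the table. CAGAC stood in 33.8%, 37.5%, 35.5% and 37.8% of the same sets, and CAGGTG in 16.4%, 21.9%, 15.3% and 17.5%. GTCTAGAC was in none of the higher or lower genes and in 0.0968% of all genes tested and 0.176% of the table. These shares are descriptions without a test.

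KRT15, a basal keratin, had the largest fall on the log2(FPKM + 1) scale, from 65.4 and 72.2 to 19.4 and 21.2 FPKM (-1.71 ± 0.12, adjusted p = 0.00034). By the ratio of mean FPKM, 0.295 for KRT15, genes of lower level stood below it, among them CX3CL1 (0.166) and, with 2 to 6 treated reads a library, LIPT2 and PXN-AS1. CX3CL1, the membrane-bound chemokine fractalkine, had 4.25 and 3.92 FPKM untreated and 0.832 and 0.522 with TGF-β (-1.61 ± 0.18), and NRARP, a feedback inhibitor of Notch signalling, 9.09 and 7.37, then 3.20 and 2.89 (-1.19 ± 0.14). The treated libraries lay below the untreated ones in each, as in 34.5% of all genes tested. NTHL1, a glycosylase of base excision repair (-1.14 ± 0.22), SAPCD2, which acts in spindle orientation (-1.06 ± 0.20), DUSP2, a nuclear MAP kinase phosphatase (-1.04 ± 0.17), the antisense RNA VPS9D1-AS1 (-1.03 ± 0.18) and THEM6 (-1.01 ± 0.24) came next. The other 12 of the 20 largest falls lay between -0.99 and -0.81. They were COQ8A, RAPGEFL1, the desmosomal plakin PPL, LIPT2, PXN-AS1, the cortisol-inactivating enzyme HSD11B2, MNS1, FGFBP1, TMEM147-AS1, the cell cycle factor E2F2, RGS2 and the immediate early factor EGR1. KRT15 has 8 exons on the minus strand of chromosome 17 (39669997 to 39678781).

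**Figure D2:**
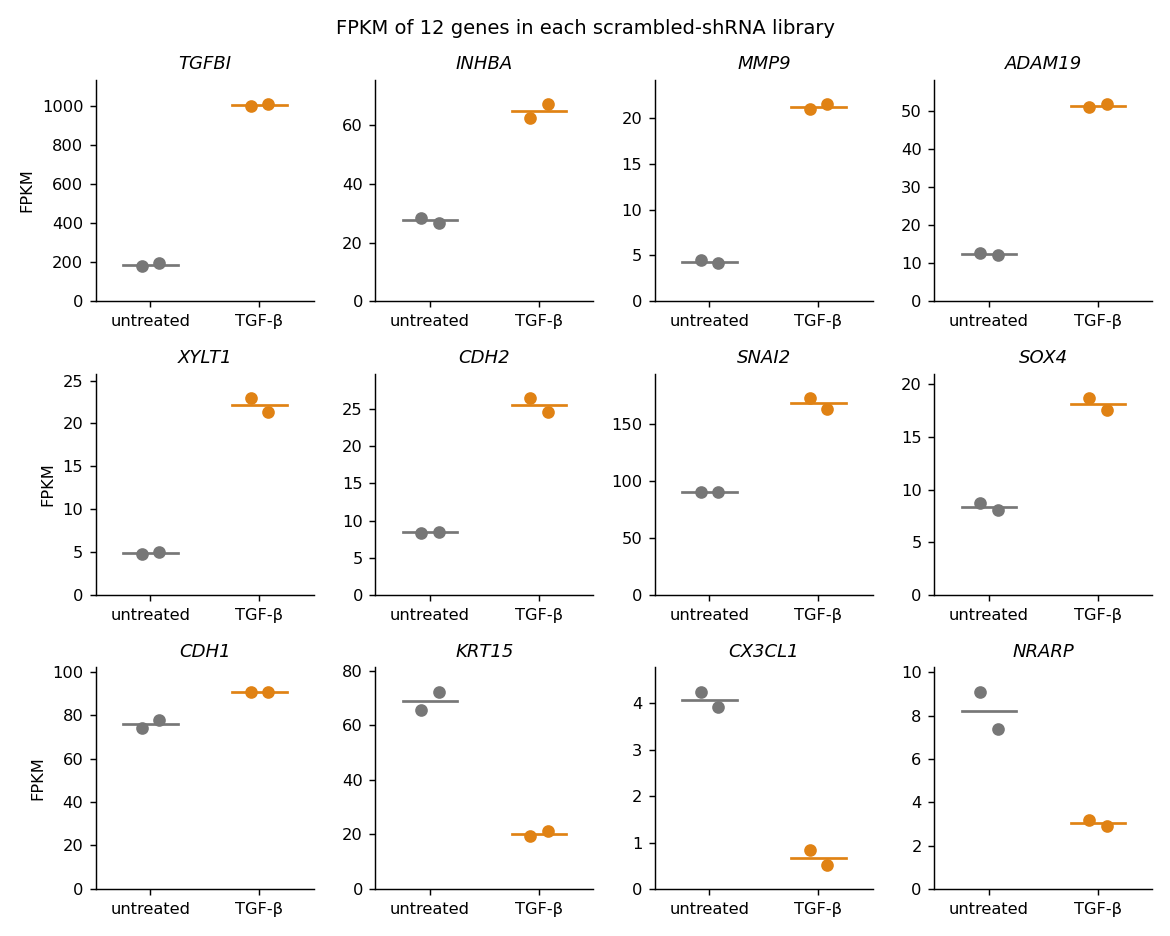
FPKM (vertical axis, from 0, scale differs between panels) of 12 genes in the 2 untreated (grey) and 2 TGF-β-treated (orange) scrambled-shRNA libraries; points are libraries and lines group means. The groups do not overlap in any panel, which was the case for 63.7% of all genes tested. CDH1, at 74.1 and 77.8 against 90.6 and 90.7 FPKM, is the panel whose difference did not pass the test.

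The members of the pathway itself were taken in order. Of 4 tested ligand, receptor and latency genes, LTBP2, which binds latent TGF-β, rose from 7.24 and 6.96 to 14.1 and 13.7 FPKM (0.88 ± 0.12). The ligand TGFB1 (0.30 ± 0.25), the common mediator SMAD4 (0.16 ± 0.11) and the latency-releasing integrin subunit ITGB8 (-0.21 ± 0.14) did not pass the test. Of 4 feedback inhibitors, the ubiquitin ligase SMURF2 rose from 23.5 and 24.1 to 54.5 and 50.0 FPKM (1.10 ± 0.13), and BAMBI (0.34 ± 0.17), WWP1 (0.22 ± 0.17) and SKI (-0.06 ± 0.18) did not pass. This list and the others were written with earlier results of these data known, so their counts and medians are descriptions. Beside each list stand 5.23% called higher and 2.38% called lower among all genes tested. Of 16 target genes, 11 rose and none fell, with a median of 0.81 against -0.03 over all genes. Besides TGFBI and ADAM19, they included INHBA, a subunit of activin A (28.3 and 26.8 to 62.3 and 67.1 FPKM; 1.20 ± 0.10), the repressor BHLHE40 (1.15 ± 0.11) and CCN2 (0.96 ± 0.11). JUNB (0.61 ± 0.32), WNT7A (0.70 ± 0.19), LOXL2 (0.44 ± 0.16), TGFB1 and TIMP1 (0.13 ± 0.17) did not pass.

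Several pathway genes have more than 1 listed transcript and were fitted only among all 12009 kept genes, with the most likely reading of 1 transcript. There CDKN2B, the CDK inhibitor p15, had 9.996 and 9.20, then 18.6 and 18.4 (0.88 ± 0.15, adjusted p = 0.063). ID1 had 11.8 and 10.8, then 19.6 and 19.1 (0.73 ± 0.24), TGFB2 0.29 ± 0.17, and the receptors TGFBR1 and TGFBR2 0.17 ± 0.14 and -0.38 ± 0.52. None of these passed the test. SMAD7 (1.20 ± 0.22), CDKN1A (0.69 ± 0.19), PMEPA1 (-1.54 ± 0.44) and SKIL (-1.72 ± 2.69) were not readable at the limit of 0.95, and no direction is drawn from them. SMAD6 and ID2 stayed under 1 FPKM in the 4 libraries.

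Of 9 activin, BMP and ID genes, 4 rose and none fell, beside 5.23% called higher among all genes tested. Their median was 0.60. The 4 were INHBA, the receptor BMPR2 (0.88 ± 0.15), the ligand BMP6 (0.81 ± 0.13) and FSTL1 (0.66 ± 0.12). BMP6 had 0.595 and 0.546 FPKM untreated and 1.83 and 1.68 with TGF-β. In SOX4-shRNA cells it had 0.174 to 0.250 FPKM, so it passed the level filter of 1 FPKM only through the treated scrambled-shRNA libraries. ID3, a target of BMP signalling, was 0.04 ± 0.32, and its libraries overlapped.

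Genes of epithelial-mesenchymal transition were unequal. Of 6 transcription factors, SOX4 rose from 8.74 and 8.04 to 18.7 and 17.6 FPKM (1.03 ± 0.13, adjusted p = 0.0039) and SNAI2, the repressor Slug, from 90.3 and 90.3 to 172 and 163 (0.89 ± 0.10, adjusted p = 0.0029). TWIST1 (-0.14 ± 0.13), SOX9 (-0.07 ± 0.12), FOXC1 (0.34 ± 0.12) and FOXC2 (0.60 ± 0.28) did not pass. SNAI1 stayed at 0.0527 to 0.290 FPKM, no listed transcript of ZEB2 reached 1 FPKM, and ZEB1, read on 1 of 6 transcripts, was 0.28 ± 0.52. Beside 5.23% called higher among all genes tested, 9 of 11 mesenchymal markers rose and none fell, with a median of 0.82. They included CDH2 (8.40 and 8.54 to 26.4 and 24.6 FPKM), cadherin-11 CDH11 (1.01 ± 0.11), tenascin TNC (1.01 ± 0.12), the membrane protease MMP14 (0.95 ± 0.12) and vimentin VIM (440 and 440 to 744 and 708 FPKM; 0.72 ± 0.09). Fibronectin FN1, fitted among all kept genes on 1 of 6 transcripts, rose from 807 and 920 to 2239 and 2193 FPKM (1.36 ± 0.10, adjusted p = 0.0075), and its reading held 0.952 of the probability, close to the limit of 0.95.

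Epithelial genes showed no common direction. Of 15 junction and other epithelial genes 2 rose and 1 fell, with a median of -0.11. ESRP2 (-0.49 ± 0.13, limma adjusted p = 0.055), CLDN1 (-0.42 ± 0.12, 0.068) and CGN (0.40 ± 0.10, 0.056) did not pass. E-cadherin CDH1 had 74.1 and 77.8 FPKM untreated and 90.6 and 90.7 with TGF-β (0.25 ± 0.10, adjusted p = 0.17), and EPCAM 71.6 and 75.6, then 59.1 and 55.8 (-0.35 ± 0.17, adjusted p = 0.24). The tight junction gene CLDN4 rose from 4.32 and 4.38 to 10.2 and 12.2 FPKM (1.19 ± 0.21) and the adhesion molecule F11R by 0.42 ± 0.10, while MAL2, a protein of apical transport, fell (-0.64 ± 0.15). Of 6 desmosome genes PPL fell, from 23.6 and 21.9 to 10.8 and 11.4 FPKM, and DSG2, DSG3, PERP, PKP3 and EVPL did not pass. Among 7 basal genes KRT15 fell and the hemidesmosomal collagen COL17A1 rose (0.46 ± 0.10). KRT16 (0.51 ± 0.14), KRT6B (0.30 ± 0.11) and KRT17 (0.19 ± 0.12) did not pass, nor did KRT5 (-0.16 ± 0.09) and KRT14 (2106 and 1868, then 2596 and 2649 FPKM; 0.40 ± 0.12) among all kept genes. TP63, read on 1 of 6 transcripts, was 0.08 ± 0.47. Of 8 cornified envelope genes, involucrin IVL rose (0.90 ± 0.16) and SPRR2D, 1 of a family of similar genes, fell (-0.68 ± 0.13).

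**Figure D3:**
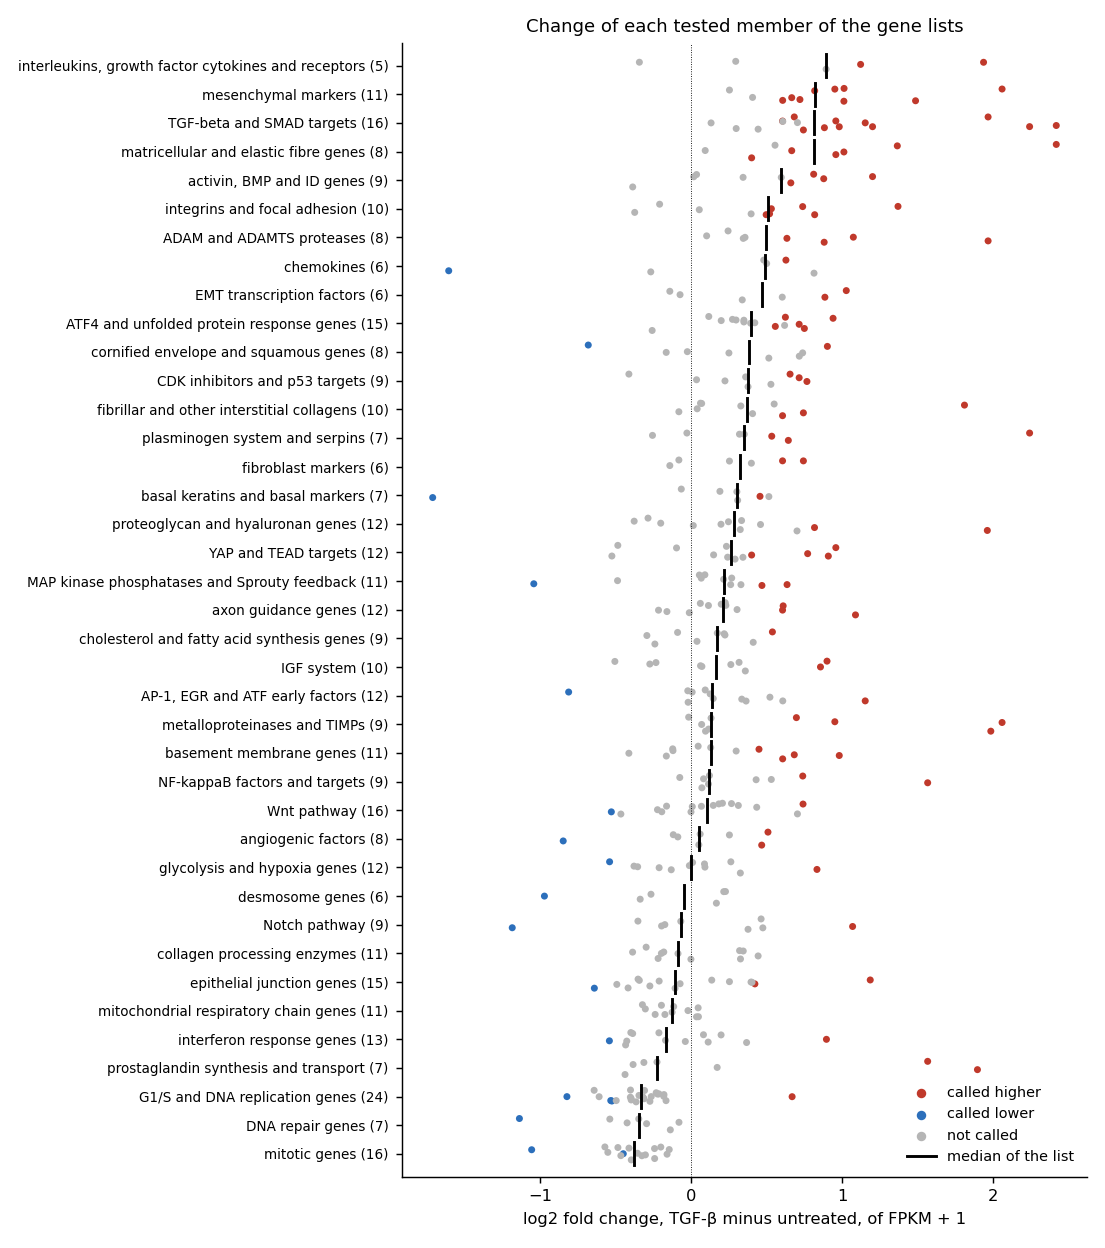
Log2 fold change with TGF-β (horizontal axis) of each tested member of the 39 gene lists with at least 5 members tested (number tested in brackets), ordered by the list's median (black bar). Red points were called higher, blue lower and grey not called; the medians run from 0.89 for the 5 interleukin and cytokine genes, over 0.82 for mesenchymal markers and 0.81 for TGF-β and SMAD targets, to -0.38 for mitotic genes.

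Matrix genes were called higher in several classes, beside 5.23% called higher and 2.38% called lower among all genes tested. The list medians differed widely. Of 8 matricellular and elastic fibre genes 6 rose and none fell (median 0.81): TGFBI, SPOCK1 (7.64 and 8.30 to 22.3 and 21.9 FPKM; 1.36 ± 0.11), TNC, CCN2, FBN1 (0.67 ± 0.13) and CCN1 (0.40 ± 0.10). Of 10 interstitial collagens, COL22A1, COL1A1 (73.7 and 67.2 to 110 and 127 FPKM; 0.74 ± 0.18) and COL1A2 (0.60 ± 0.11) rose, and COL3A1 (-0.08 ± 0.13) and COL6A1 (0.04 ± 0.18) did not pass. COL22A1 was at 0.446 and 0.644 FPKM untreated and 4.51 and 4.30 with TGF-β. It reached 1 FPKM only in TGF-β-treated libraries, so it passed the level filter through those alone. The median of the 10 interstitial collagens was 0.37. Of 11 basement membrane genes, both chains of collagen IV, COL4A1 (64.1 and 67.4 to 132 and 129 FPKM; 0.98 ± 0.10) and COL4A2 (0.68 ± 0.14), rose with SPARC (0.61 ± 0.10) and LAMB1 (0.45 ± 0.11), and none fell. The median of the 11 basement membrane genes was 0.13. None of 11 collagen processing enzymes was called, and their median was -0.09. Of 12 proteoglycan and hyaluronan genes XYLT1 and the hyaluronan synthase HAS2 (0.698 and 0.928 to 1.99 and 2.39 FPKM, 0.82 ± 0.15) rose, and the median was 0.29. HAS2 had 0.0629 to 0.236 FPKM in SOX4-shRNA cells, so it passed the level filter of 1 FPKM only through the treated scrambled-shRNA libraries.

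Among all genes tested 5.23% were called higher and 2.38% lower. Of 9 metalloproteinases and TIMPs, 4 rose and none fell, with a median of 0.13. The 4 were MMP9, MMP10, MMP14 and the inhibitor TIMP3 (36.5 and 36.5 to 60.3 and 59.3 FPKM, 0.70 ± 0.10). MMP10 reached 1 FPKM only in TGF-β-treated libraries, so it passed the level filter of 1 FPKM through those alone. Of 8 ADAM and ADAMTS proteases 4 rose, namely ADAM19, ADAMTS15 (1.07 ± 0.13), ADAMTS1 (0.88 ± 0.12) and ADAMTS6 (0.63 ± 0.14), and the sheddases ADAM10 (0.24 ± 0.17) and ADAM17 (0.10 ± 0.14) did not pass. Among plasminogen system genes and serpins, SERPINB5 (0.64 ± 0.12) and S100A10 (0.53 ± 0.10) rose. Integrin and focal adhesion genes rose in 6 of 10 cases, with a median of 0.51. They were FERMT1 (57.5 and 58.2 to 152 and 150 FPKM), the fibronectin receptor subunit ITGA5 (72.7 and 76.4 to 130 and 135; 0.82 ± 0.13), TNS1, TNS4, TLN1 and PARVA. None of 4 actin and contractility genes tested passed.

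Secreted signals moved in both directions. Of 5 interleukins and growth factor cytokines, CSF2 and IL1A (20.5 and 27.6 to 54.2 and 51.6 FPKM; 1.12 ± 0.15) rose, and IL6 (0.89 ± 0.25, adjusted p = 0.063) and IL1B (-0.34 ± 0.16) did not pass. Of 6 chemokine genes CXCL8 rose (0.63 ± 0.13) and CX3CL1 fell. Among 9 NF-κB genes PTGS2 and the kinase IRAK2 rose (0.74 ± 0.13), and NFKBIA, a direct NF-κB target, was 0.12 ± 0.12. Of 7 prostaglandin genes PTGS2 (2.76 and 3.12 to 10.7 and 10.6 FPKM) and SLCO2A1 (3.94 and 3.29 to 16.0 and 16.2) rose, while the receptors PTGER4 (-0.44 ± 0.11, adjusted p = 0.055) and PTGER2 (-0.38 ± 0.11, adjusted p = 0.082) did not pass. Among 8 angiogenic factors VEGFC (0.51 ± 0.10) and HBEGF (0.47 ± 0.10) rose and FGFBP1 fell from 413 and 492 to 249 and 252 FPKM. SEMA3C (1.09 ± 0.15), NTN4 (0.61 ± 0.12) and PLXNA2 (0.60 ± 0.13) rose among 12 axon guidance genes.

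In the Notch list of 9 genes the ligand JAG1 rose from 31.1 and 31.0 to 67.6 and 64.8 FPKM (1.07 ± 0.10) while the target NRARP fell, and HES1 (0.38 ± 0.17) and NOTCH1 (-0.35 ± 0.21) did not pass. In the Wnt list of 16 genes the inhibitor SFRP1 rose (21.9 and 22.1 to 37.6 and 37.2 FPKM; 0.74 ± 0.10) and the inhibitor DKK1 fell (70.1 and 72.3 to 50.3 and 47.8; -0.53 ± 0.10). Of 12 YAP and TEAD targets CCN2, ANKRD1 (0.91 ± 0.19), VGLL3 (0.77 ± 0.17) and CCN1 rose. Of 12 early response factors BHLHE40 rose (25.8 and 25.8 to 59.6 and 57.4 FPKM) and EGR1 fell (52.5 and 45.3 to 27.3 and 27.3), and JUN (0.52 ± 0.14, adjusted p = 0.059) and FOS (-0.02 ± 0.18) did not pass. In the list of 11 MAP kinase phosphatases and Sprouty feedback genes, DUSP16 (0.63 ± 0.13) and PHLDA1 (0.47 ± 0.11) rose and DUSP2 fell. The stanniocalcins STC1 (0.90 ± 0.14) and STC2 (0.86 ± 0.11) rose in the IGF list of 10.

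Most cell cycle genes did not pass the test, and among all genes tested 5.23% were called higher and 2.38% lower. All 16 mitotic genes tested had values below 0 under each scaling tried, with a median of -0.38. Of these, SAPCD2 and cyclin B1 CCNB1 (150 and 151 to 113 and 108 FPKM, -0.45 ± 0.11) passed the test. Of 24 genes of G1/S and DNA replication 23 lay below 0 (median -0.33), and E2F2, GINS2 (-0.53 ± 0.11) and the chromatin assembly subunit CHAF1A (-0.53 ± 0.10) fell, while the repressor E2F7 rose from 10.3 and 11.8 to 18.8 and 17.5 FPKM (0.67 ± 0.12). Over all genes tested 2868 of 5217 lay below 0. Of 9 CDK inhibitor and p53 target genes GADD45B (0.77 ± 0.14), SESN2 (0.71 ± 0.16) and BTG1 (0.65 ± 0.13) rose, and cyclin D2 CCND2 was -0.41 ± 0.10 (adjusted p = 0.051). All 7 DNA repair genes lay below 0 (median -0.35), and NTHL1 fell (10.4 and 9.43 to 4.04 and 3.87 FPKM).

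Of 15 ATF4 and unfolded protein response genes 5 rose and none fell (median 0.39), beside 5.23% called higher among all genes tested. The chaperone HSPA5, known as BiP, rose from 345 and 401 to 651 and 602 FPKM (0.75 ± 0.17), with DNAJB9 (0.94 ± 0.15), SESN2, SLC7A11 (0.62 ± 0.14) and EDEM1 (0.56 ± 0.11). HSPA5 and COL17A1 are among the 26 genes restored at the lower score. Of 12 glycolysis and hypoxia genes PFKFB4 rose (0.83 ± 0.17) and hexokinase HK2 fell (-0.54 ± 0.11), of 9 lipid synthesis genes the squalene epoxidase SQLE rose (0.54 ± 0.11), and none of 11 respiratory chain genes was called. Of 13 interferon response genes ISG20 rose (0.90 ± 0.21) and HERC5 fell (-0.54 ± 0.13).

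The same treatment of cells with the SOX4 shRNA was compared next. SOX4 itself had 8.74 and 8.04 (untreated) and 18.7 and 17.6 (TGF-β) FPKM in the scrambled-shRNA libraries and 0.923 and 1.02 (untreated) and 2.37 and 1.88 (TGF-β) in the SOX4-shRNA libraries. All 40 leading genes had the same sign there, as did 270 of the 273 higher and 121 of the 124 lower genes, against 76.5% of all genes tested. Of the 273 higher genes 200 were also called higher there, against 6.36% of all genes, and of the 124 lower genes 53 were called lower, against 2.38%. The comparisons come from separate libraries but share 1 estimate of spread. No gene was called in the test of the difference itself (0 of 5213, or 0%, limma). At an unadjusted limma p under 0.05 there were 149 genes, fewer than that threshold passes on average where no gene differs. TGFBI rose by 3.68 ± 0.10 in SOX4-shRNA cells, a difference of 1.26 ± 0.14 (limma adjusted p = 0.067). ADAM19 rose by 3.01 ± 0.11, a difference of 1.04 ± 0.15 (limma adjusted p = 0.34). TGFBI had 82.2 and 82.2 FPKM untreated there and 1023 and 1112 with TGF-β, against means of 187 and 1004 in scrambled-shRNA cells. ADAM19 had 3.65 and 3.18, then 33.4 and 35.6 FPKM, against means of 12.4 and 51.4. Both untreated levels were thus lower with the SOX4 shRNA, and so was the treated level of ADAM19. MMP10 had a smaller value there on the log2(FPKM + 1) scale, 1.05 ± 0.16, a difference of -0.93 ± 0.23 (limma adjusted p = 0.90). So had COL22A1 with 0.89 ± 0.13 (difference -0.92 ± 0.19, limma adjusted p = 0.51). In SOX4-shRNA cells MMP10 had 0.0462 and 0.290 FPKM untreated and 1.33 and 1.48 with TGF-β. COL22A1 had 0.105 and 0.0315, then 1.04 and 0.923 FPKM. That scale understates change at such levels, so the values of MMP10 and COL22A1 do not show a weaker response. Some called genes had the other sign in SOX4-shRNA cells, each with a limma adjusted p = 0.49 for the difference. Means untreated and with TGF-β were 4.49 and 7.49 FPKM for CXCL8, against 20.7 and 15.9 in SOX4-shRNA cells (difference -0.98 ± 0.18). ADAMTS1 had 5.88 and 11.7, against 0.866 and 0.848 (-0.89 ± 0.16). SPRR2D had 3.06 and 1.53, against 2.21 and 3.09 (1.03 ± 0.19). The absence of calls depended on the processing: the difference of TGFBI passed with quantile normalization and with voom, and those of ADAM19 and XYLT1 with voom.

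**Figure D4:**
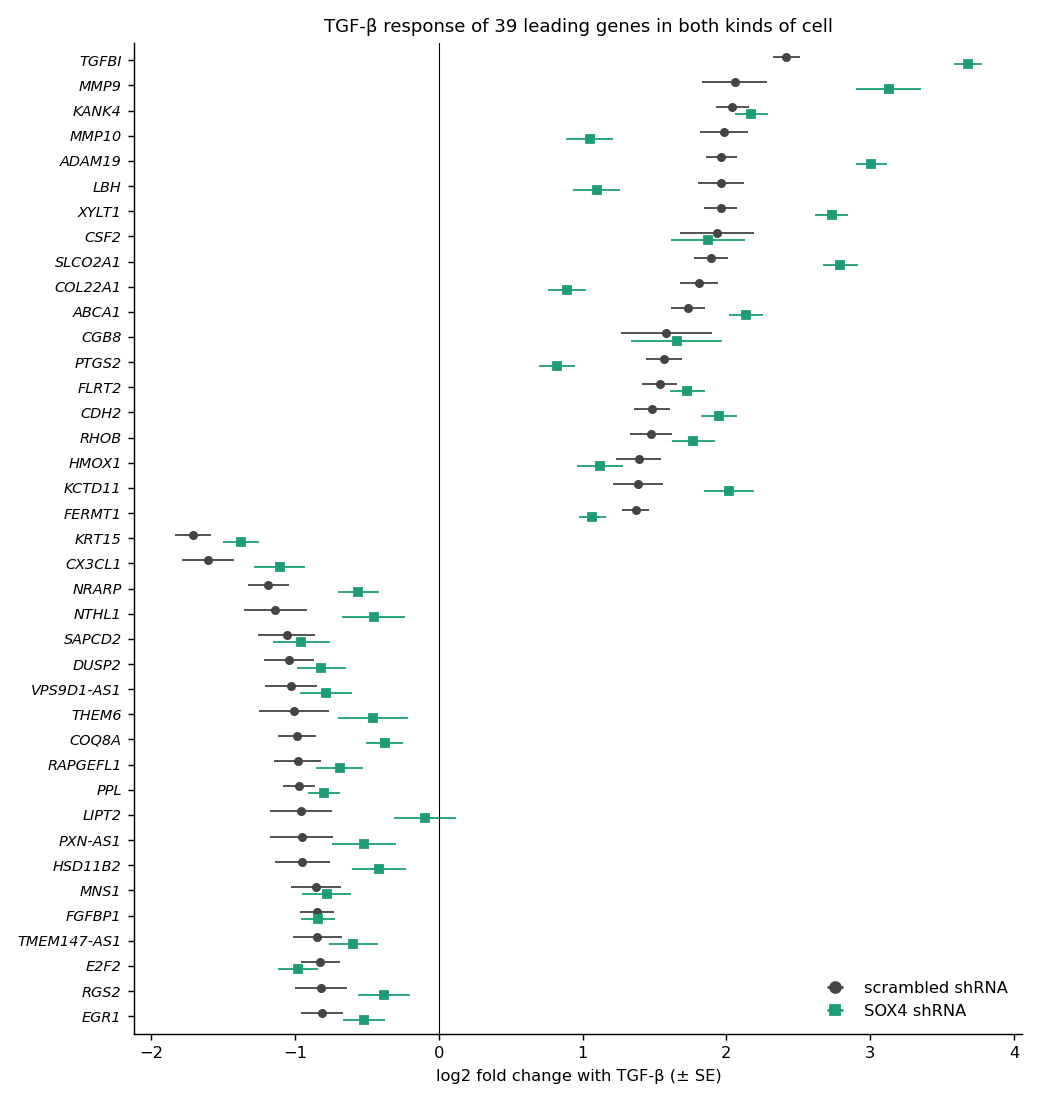
Log2 fold change with TGF-β (horizontal axis, ± SE from the fit of all 8 libraries) of the leading genes in scrambled-shRNA cells whose difference could be tested, in those cells (grey circles) and in SOX4-shRNA cells (green squares), 2 libraries a group. Each has the same sign in both, and no difference passed the test.

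The kit marked strand, but no source used here says whether the counting used it, so values are uncertain for genes whose exons another gene overlaps on the opposite strand. This applies to 51 of the 133 genes that the naming rule gave, among them ADAM19, BHLHE40, BMP6, CCN2, CDH1, CDH2, COL1A1, COL4A2, FLRT2, INHBA, JAG1, KCTD11, LTBP2, MMP9, NRARP, PTGS2, SAPCD2, SMURF2, SNAI2, SOX4, SPARC, TNC, VIM, VPS9D1-AS1 and XYLT1.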

How the data were processed

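RNA of 8 libraries was sequenced as 75-nt single reads. Per the labels' protocols a stranded ribosomal-depletion kit was used, while another label names polyA RNA. The submitters' processing notes name Cuffdiff, Cufflinks 2.2.1, TopHat2 2.0.9 and the build hg19. In the deposited table are 48175 RefSeq transcripts, with values taken as FPKM from these tools and from the values; 34.1% of cells had lost the decimal mark, and the 13.9% in damaged exponent notation were set to 0. Symbols were matched for 97.8% of transcripts.

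Marks were restored from genes with 1 transcript, where each FPKM must equal whole reads multiplied by 1 factor per library and length. Of 5540 genes searched, 5222 (94.3%) gave whole reads within 0.001 reads, against 32 with random digits, all at a score under 10, as 26 of the real genes. Readings were weighed by replicate spread, effect size and level, and tested where those within 0.2 log10 held 0.95 of the probability. These rules were revised repeatedly after seeing the data: some revisions followed the random digits, others removed implausible readings at the top of the fold changes, and the weights were set with known TGF-β genes in view. Some earlier versions called a few genes, TGFBI among them, in the difference between SOX4-shRNA and scrambled-shRNA cells.

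Genes with at least 1 FPKM in at least 2 libraries were tested with limma 3.58.1 (R 4.3.3) after taking log2(FPKM + 1), in 1 fit of 4 groups with an intensity trend and 4 residual degrees of freedom, with Benjamini-Hochberg adjustment over all genes. Tested on simulated data of 5222 genes, the fit of this comparison recovered 28.4% of 67 genes changed by 0.5 on the log2 scale, 74.6% of 67 changed by 1 and 100% of 66 changed by 2, with 7 false among 142 calls. The changed genes in this simulation had at least 5 FPKM untreated, and each gene had equal normal noise in all 4 groups. The recovery and false calls therefore need not hold for lower genes or for the unequal spread of the real groups. The genes named are the 20 largest calls per direction, up to 4 called members per list by p, and a set quoted whatever its values. IL6, TIMP1 and other list members that were not called were added after seeing their values. Members and lists were chosen with earlier results of these data known. A gene that these rules name is not reported here. Coordinates are from GENCODE 44 lifted to GRCh37. Same-numbered libraries did not vary together (correlation of their deviations -0.25 and -0.66 in the 2 kinds of cell). With 2 libraries a group, the negative sign means that opposite-numbered libraries varied together. The main fit leaves this shared part in the spread, and its origin was not tested. The alternatives were 2 pseudocounts, 2 filters, 2 scalings, no trend, a replicate block, the compared groups alone, all kept genes, voom, each library left out and, chosen after seeing the data, a crossed block and a score of at least 10.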

Additional observations from a re-analysis of the deposited data

How the results depend on the processing

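Of 110 called genes that the text names by rule, none reversed its sign under any alternative, and SPOCK1, INHBA, PTGS2, FLRT2, CDH2, ADAM19, LBH, XYLT1, KANK4, MMP9, MMP10, ABCA1, SLCO2A1, KRT15, RHOB and FERMT1 kept their call in all 22. The 397 calls (273 higher, 124 lower) became 255 without a filter on low values (65 lower), 164 among all kept genes (136 and 28), 1053 in the compared groups alone (575 and 478), and 937 there with a replicate block, with 1 residual degree of freedom (507 and 430). Of the calls 68.8% were higher, against 55.6% with voom (258 higher and 206 lower) and 76.7% with median log ratio scaling (330 and 100). The replicate numbers share no stated origin, and a replicate block left 23 calls (21 and 2), while crossed numbers, added after seeing the data, gave 1684 (808 and 876). With 1 library left out the calls ranged from 30 to 471 (28 to 318 higher, 2 to 153 lower); the lone library of a group is then assumed to vary like the other groups. Without a scrambled-shRNA library 64 to 86 of the 110 named calls were lost. In the difference of responses the 0 calls became 1 with quantile normalization (TGFBI), 2 among all kept genes (MIR1910 and MIR647), 3 with voom (ADAM19, TGFBI and XYLT1) and 3 with crossed numbers. The causes were not tested.

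Restored values rest on rules revised after seeing the data, and with a reading score of at least 10, which leaves TGFBI out, 387 genes were called. At this depth and replication many changes under 2-fold would be missed. Genes with more than 1 listed transcript were not part of the main test.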

Other observations

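Of 248 long non-coding RNAs tested 16 rose and 7 fell, or 9.27%, a share near the 7.61% of all genes, with a median of -0.04 against -0.03. UCA1 rose from 11.3 and 10.4 to 30.7 and 27.6 FPKM (1.35 ± 0.11), LINC01127 from 0.676 and 0.698 to 2.71 and 3.03 (1.20 ± 0.16), LINC01116 from 27.5 and 34.6 to 65.2 and 56.0 (0.95 ± 0.15) and MANCR from 9.90 and 12.2 to 21.4 and 20.5 (0.87 ± 0.15). The treated libraries were higher in each, as in 29.2% of all genes tested. The snoRNA hosts SNHG12, from 30.4 and 25.7 to 18.2 and 17.2 FPKM (-0.63 ± 0.13), and SNHG1, from 119 and 114 to 76.3 and 78.1 (-0.59 ± 0.12), fell. These genes were chosen after their values were seen.

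Among the 273 genes that rose, 19, BMP6 and HAS2 among them, were below 1 FPKM in both untreated libraries. They passed the filter on low values through other libraries, so their number is a description and supports no rise. Besides MMP10 and COL22A1 they included the potassium channel KCNA7, from 0.314 and 0.570 to 2.52 and 2.39 FPKM (1.27 ± 0.20), the forkhead factor FOXS1, from 0.694 and 0.781 to 3.07 and 2.48 (1.12 ± 0.18), and the hyaluronan-binding TNFAIP6, from 0.244 and 0.583 to 1.65 and 1.67 (0.92 ± 0.16). TNFAIP6 rests on 5 and 9 reads untreated and 30 and 28 with TGF-β. Of the 124 genes that fell, 16 were below 1 FPKM in both treated libraries, and the same holds for their number.

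By mean level, 28 of 255 genes at 100 FPKM or more rose and 5 fell. Of 1628 genes under 5 FPKM 79 rose and 44 fell.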
